A study of Mus musculus with 6 samples.

Results

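Box H/ACA and box C/D small nucleolar ribonucleoproteins (snoRNPs) are complexes of a guide RNA with a set of core proteins. Genes of 8 snoRNP proteins were followed in mouse hematopoietic stem cells out of 22969 gene identifiers in the count table. They were Nop10, Nhp2, Gar1, Dkc1 and Naf1 on the box H/ACA side and Fbl, Nop56 and Nop58 on the box C/D side. The 8 genes were chosen by their function and by measured values of the same contrast described here, among them the low Nop10 count, so their values are given as descriptions. All 8 had a symbol in the table, and all 8 passed the filter on low counts.

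Libraries labelled Rbfox2-deleted came from Vav1-cre; Rbfox2-fl/fl mice and libraries labelled control from Rbfox2-fl/fl mice without Cre, all on the C57BL/6 background. Both groups carry floxed Rbfox2 alleles; Rbfox2 encodes an RNA-binding splicing regulator, and Vav1-cre recombines across blood lineages rather than in stem cells alone. No library in the labels has Cre without floxed alleles, so an effect of Cre and one of the deletion cannot be told apart. About 500 adult bone marrow cells of the LSKCD150+CD48- phenotype were sorted for each library, with 3 libraries in each group. Total counts ran from 23474895 to 35650284 in libraries labelled Rbfox2-deleted and from 47895459 to 55151484 in libraries labelled control. Genes detected numbered 14154 to 15972 with the deleted label and 16675 to 17087 in controls, and mitochondrial genes took 3.90% to 5.19% and, in controls, 5.52% to 5.58% of counts. The part of depth and RNA quality in the results was not tested.

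Rbfox2 itself had 2, 87 and 10 counts in libraries labelled Rbfox2-deleted 1, 2 and 3, against 238, 11 and 250 counts in controls 1, 2 and 3. The groups overlapped, since control 2 lay below library 2 of the deleted label, so the gene count does not separate the labels. Which exon Cre removes is not stated in the labels, and reads from the remaining exons would still be counted. Controls 1 and 3 were far more alike than any other pair (chi-square per degree of freedom of 3.44, against 156 to 808), and their counts were summed and used as 1 sample. Tests therefore set 3 samples against 2, and their p-values measure only the spread between these samples. Xist, which silences 1 X chromosome in female cells, had 2821 and 2467 counts in libraries labelled Rbfox2-deleted 1 and 3. It had 26 in library 2 of that label and 3 to 55 in controls. Y-linked Eif2s3y had 0, 1042 and 0 counts in libraries labelled Rbfox2-deleted 1, 2 and 3. In controls 1, 2 and 3 it had 1419, 576 and 1560. By these genes libraries 1 and 3 of the deleted label were female and the other libraries male. Sex is thus partly confounded with group, and the 2 cannot be fully told apart.

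Summed levels of 7 stem cell markers (Ly6a, Kit, Slamf1, Procr, Mecom, Hlf and Fgd5) were 731 to 873 CPM in libraries labelled Rbfox2-deleted and 1018.5 to 1245 CPM in controls. CPM are counts scaled to a common library total, here with factors from the trimmed mean of M values (TMM). Cd48, which the sort selected against, had at most 3 counts in every library. Ptprc, the pan-leukocyte antigen CD45, had 37.6, 39.5 and 34.4 CPM in libraries labelled Rbfox2-deleted, against 69.0, 73.6 and 71.0 CPM in controls. Several lists of other cell types also differed between the groups. The 6 megakaryocyte markers summed to 52.3 to 227 CPM in libraries labelled Rbfox2-deleted, against 288 to 301 CPM in controls. For 10 granulocyte and monocyte markers the sums were 1635 to 2009 CPM in libraries labelled Rbfox2-deleted and 2105 to 2889 CPM in controls. The 7 B cell markers gave 129 to 212 CPM with the deleted label and 229 to 328 CPM in controls, with 4 of the 7 at no more than 3 counts everywhere. Macrophage and dendritic markers, 6 in all and 3 of them at no more than 3 counts, gave 2.68 to 50.1 CPM with the deleted label and 56.9 to 59.7 CPM in controls. The 6 endothelial and stromal markers were higher with the deleted label, at 13.5 to 38.8 CPM, against 7.82 to 10.3 CPM in controls. Sums for 8 erythroid markers (102 to 406 CPM with the deleted label, 103 to 160 CPM in controls) and 6 T and NK cell markers (104 to 199 CPM, against 86.2 to 118 CPM in controls) overlapped. The part of these differences in the snoRNP gene levels was not tested. In sorted bulk samples, fewer cells of a type and less RNA per cell cannot be told apart.

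In box H/ACA particles the guide RNA pairs with ribosomal or spliceosomal RNA, and dyskerin (Dkc1), the catalytic subunit, turns the selected uridine into pseudouridine. Nop10, Nhp2 and Gar1 are its partners, and Naf1 is an assembly factor that is exchanged for Gar1 as the particle matures. The same proteins bind telomerase RNA and stabilise it, and mutations in several of them cause dyskeratosis congenita, a telomere disease with bone marrow failure in people. In box C/D particles fibrillarin (Fbl) is the methyltransferase that places 2′-O-methyl groups, Nop56 and Nop58 form the scaffold, and Snu13 binds the kink-turn of the guide RNA.

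Promoter windows of 250 bases before to 50 bases after the annotated start were matched for 6 of the 8 genes (RefSeq, GRCm38.p6). Those of Nop10 and Nop58 are shown because they are the genes whose groups did not overlap. Those of Nhp2 and Gar1, direct partners of Nop10 in the particle, are shown for comparison. The windows were chr2:112261676-112261975 on the plus strand for Nop10, chr1:59684756-59685055 on the plus strand for Nop58, chr11:51619523-51619822 on the plus strand for Nhp2 and chr3:129831347-129831646 on the minus strand for Gar1. Capitals mark CCGGAA, the core recognised by ETS factors, on either strand.
Nop10: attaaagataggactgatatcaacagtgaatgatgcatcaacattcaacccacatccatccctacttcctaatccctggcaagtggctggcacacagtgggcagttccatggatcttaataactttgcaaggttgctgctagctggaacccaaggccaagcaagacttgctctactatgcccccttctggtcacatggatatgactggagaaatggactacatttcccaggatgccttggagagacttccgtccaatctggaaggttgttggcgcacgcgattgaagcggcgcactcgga
Nop58: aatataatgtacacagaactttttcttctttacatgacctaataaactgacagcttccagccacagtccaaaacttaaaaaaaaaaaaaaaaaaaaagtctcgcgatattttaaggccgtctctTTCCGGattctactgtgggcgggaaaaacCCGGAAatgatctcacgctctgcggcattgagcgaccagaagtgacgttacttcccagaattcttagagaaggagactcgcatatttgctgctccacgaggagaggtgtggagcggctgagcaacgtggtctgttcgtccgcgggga
Nhp2: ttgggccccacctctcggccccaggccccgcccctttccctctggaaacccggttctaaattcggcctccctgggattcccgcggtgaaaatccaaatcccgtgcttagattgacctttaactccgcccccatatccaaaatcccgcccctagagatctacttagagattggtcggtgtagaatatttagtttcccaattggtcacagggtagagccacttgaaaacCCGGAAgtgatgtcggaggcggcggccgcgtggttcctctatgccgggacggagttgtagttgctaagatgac
Gar1: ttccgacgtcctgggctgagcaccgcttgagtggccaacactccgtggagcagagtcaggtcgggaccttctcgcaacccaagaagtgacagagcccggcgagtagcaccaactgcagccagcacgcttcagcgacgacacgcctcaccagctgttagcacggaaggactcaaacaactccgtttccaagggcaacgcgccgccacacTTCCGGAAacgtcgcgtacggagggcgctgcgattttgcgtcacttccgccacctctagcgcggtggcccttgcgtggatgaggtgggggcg
Nop58 held 2 matches, Nhp2 held 1 and Gar1 held 2 that overlap each other, while Nop10 held 0. Neither Nop56 nor Dkc1 held this motif. Of 32544 promoter windows of the same length, 4876 (14.98%) held CCGGAA on either strand. An E-box, CACGTG, was in 0 of the 6 windows, against 7.17% of all windows, and TATAAA was in that of Dkc1 alone, against 13.6% of all windows. The Nop10 window had 49.3% G and C, above 45.3% in that of Nop58 and below 55.3% in that of Nhp2 and 63.0% in that of Gar1. A match is a run of letters, and binding was not measured.

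Nop10 (ENSMUSG00000027133, chr2:112261926-112263269 on the plus strand in GRCm38, 2 exons) was the gene of this set that stood furthest below control. It had 313, 412 and 393 CPM in libraries labelled Rbfox2-deleted 1, 2 and 3, against 805, 931 and 818 CPM in controls 1, 2 and 3. All 3 libraries with the deleted label lay below every control, and the groups were far apart on this scale. The means were 372 ± 52.6 CPM (SD, n = 3) with the deleted label and 871 ± 83.7 CPM (SD, n = 2) in controls, so the deleted label was at 42.7% of control. The counts behind these values were 6191, 15869 and 15286 with the deleted label and 38913, 44777 and 45543 in controls. Counting error in reads was thus small, but reads made by PCR are not independent molecules. The log2 fold change was -1.23 (SE 0.237), with an adjusted p of 0.387 in edgeR's quasi-likelihood test and 0.120 in DESeq2. The difference therefore did not pass the threshold of 0.05 in either tool.

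Across the 19 settings tried, the Nop10 log2 fold change ran from -1.54 to -0.49, and relative to the median gene of each fit from -1.63 to -0.91. The smallest value, -0.49, came with a correction for transcript length, under which the median gene moved to 0.47. With a GC correction the Nop10 value was -0.78, and the median gene stood at 0.50. Nop10 has no other annotated gene on its exons and no near-identical copy among annotated pseudogenes by the measures used. Copies of other kinds were not searched.

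**Figure D1:**
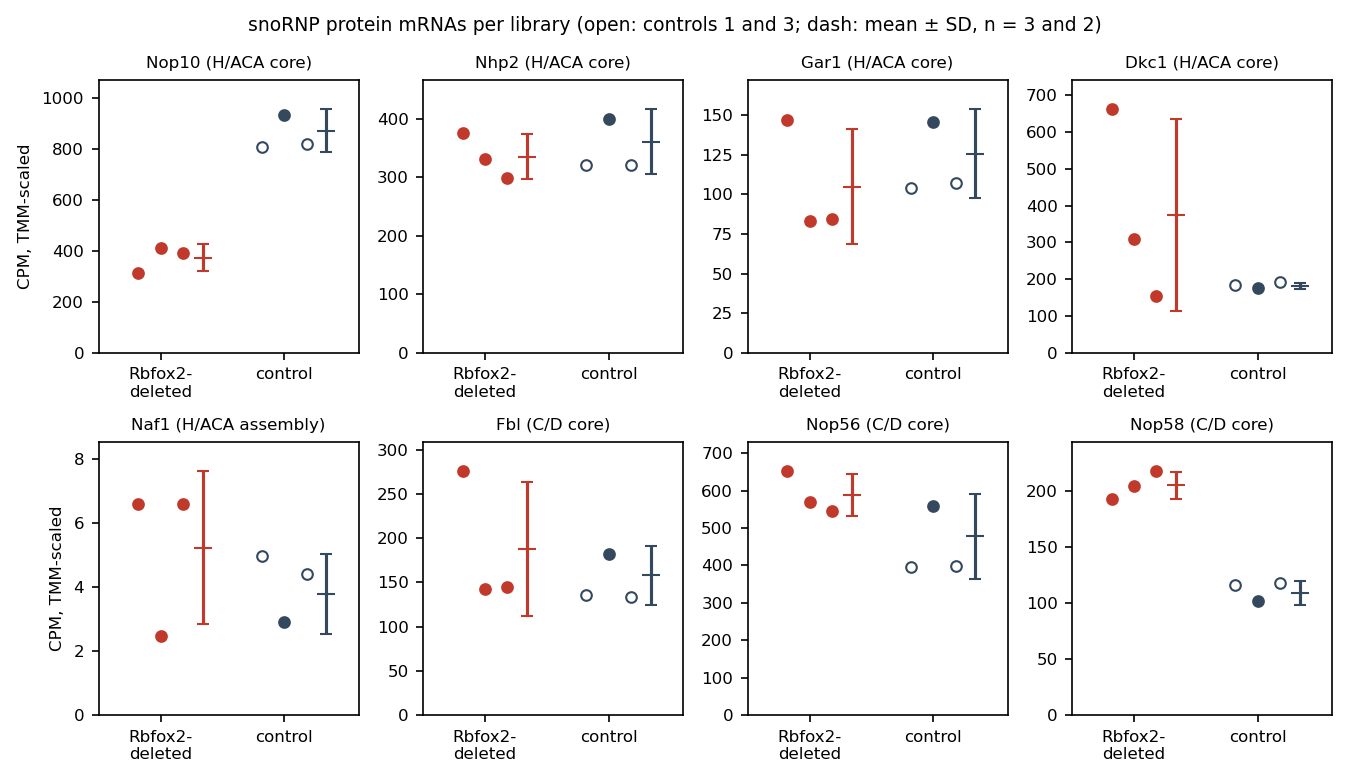
Scaled CPM of the 8 snoRNP protein genes, one panel for each gene, with a point for every library (open points are controls 1 and 3, used as 1 sample) and bars of mean ± SD (n = 3 with the deleted label, n = 2 in controls); libraries labelled Rbfox2-deleted are left of controls. The points of Nop10 (313 to 412 CPM with the deleted label, 805 to 931 CPM in controls) and Nop58 (193 to 217 CPM, against 101 to 117 CPM in controls) do not overlap, while those of the other 6 genes do.

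Nhp2 (ENSMUSG00000001056, chr11:51619735-51623714 on the plus strand), which holds the guide RNA in H/ACA particles, was at a like level in both groups. It had 376, 331 and 299 CPM in libraries labelled Rbfox2-deleted, against 322, 400 and 321 CPM in controls. Library 1 of the deleted label lay above 2 of the controls and library 3 below all 3, so the groups overlapped. On the log2 scale the difference was -0.10 (SE 0.250), at an adjusted p of 0.961 in edgeR, but 0.39 with the GC correction and 0.74 with the length correction. Nhp2 shares exonic bases with Rmnd5b on the opposite strand, which had 158, 89.4 and 87.0 CPM with the deleted label and 55.6, 48.0 and 53.2 CPM in controls, and the reads of the 2 genes cannot be told apart without strand.

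Gar1 (ENSMUSG00000028010, chr3:129824912-129831396 on the minus strand), the subunit that helps the particle release its substrate, had 147, 83.4 and 84.5 CPM in libraries labelled Rbfox2-deleted, against 104, 146 and 107 CPM in controls. Library 1 of the deleted label and control 2 were the high ones of their groups, and the ranges overlapped. The fold change on the log2 scale came to -0.26 (SE 0.411), with 0.942 as edgeR's adjusted p, but to 0.45 with the GC correction and 0.48 with the length correction.

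Dkc1 (ENSMUSG00000031403, chrX:75095854-75109777 on the plus strand) varied most among the abundant genes of the set. It had 662, 308 and 154 CPM in libraries labelled Rbfox2-deleted 1, 2 and 3, against 183, 176 and 191 CPM in controls. Library 1 was the highest of all 6, while library 3 was below every control, so the groups overlapped while the controls were close to each other. The means were 375 ± 260 CPM (SD, n = 3) with the deleted label and 182 ± 7.86 CPM (SD, n = 2) in controls. This is a log2 fold change of 1.04 (SE 0.598) at an adjusted p of 0.680 in edgeR, and of 0.34 without library 1 of the deleted label. Libraries 1 and 3 of the deleted label, the extremes of Dkc1, were both high in Xist. With sex as a term, this X-linked gene stood at 0.76 (SE 0.810), which sets library 2 of that label alone against the controls. Dkc1 also shares exonic bases with Mpp1 on the opposite strand, which had 131, 37.7 and 43.4 CPM with the deleted label and 22.7, 13.3 and 22.0 CPM in controls.

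Naf1 (ENSMUSG00000014907, chr8:66860217-66890564 on the plus strand), the assembly factor, was the scarcest of the 8. It had 131, 95 and 257 counts in libraries labelled Rbfox2-deleted, against 240, 140 and 245 counts in controls. In scaled CPM these were 6.62, 2.46 and 6.61 with the deleted label and 4.97, 2.91 and 4.40 in controls, and the groups overlapped. Exact Poisson intervals at 95% reached from 1.99 to 3.01 CPM for library 2 of the deleted label and from 2.45 to 3.43 CPM for control 2, which are the low library of each group. These intervals cover counting error only, since reads made by PCR without molecular identifiers are not independent molecules. Naf1's log2 fold change of 0.46 had an SE of 1.28, larger than the value, and an edgeR adjusted p of 0.970. A copy at least 90% identical over at least 50% of the transcript, Gm2027, makes its count less certain.

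On the box C/D side, Nop58 (ENSMUSG00000026020, chr1:59684971-59719044 on the plus strand) stood above control. It had 193, 204 and 217 CPM in libraries labelled Rbfox2-deleted, against 116, 101 and 117 CPM in controls. All 3 libraries with the deleted label lay above every control, and the libraries within each group were close to each other. The means were 205 ± 12.1 CPM (SD, n = 3) with the deleted label and 109 ± 10.8 CPM (SD, n = 2) in controls. The log2 fold change was 0.91 (SE 0.281), with an adjusted p of 0.393 in edgeR and 0.299 in DESeq2, so it did not pass the threshold. Across the 19 settings it ran from 0.58 with upper quartile scaling to 1.66 with the length correction, and relative to the median gene from 0.67 to 1.19. The longest annotated Nop58 transcript has 9507 bases and another coding transcript has 1713, so the length used for that correction is uncertain.

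Nop56 (ENSMUSG00000027405, chr2:130274430-130279313 on the plus strand), the scaffold partner of Nop58, had 651, 570 and 545 CPM in libraries labelled Rbfox2-deleted, against 396, 558 and 399 CPM in controls. The groups overlapped because control 2, which is 1 of the 2 control samples, lay above library 3 of the deleted label. Without TMM scaling they did not overlap, at 549, 616 and 635 CPM with the deleted label and 400, 520 and 402 CPM in controls. Nop56's log2 fold change was 0.30 with an SE of 0.256 (adjusted p 0.843, edgeR) and -0.050 with upper quartile scaling. That value was 0.049 without controls 1 and 3, and 0.57 without control 2. Nop56 shares exonic bases with Idh3b on the opposite strand, which had 591, 434 and 432 CPM in libraries labelled Rbfox2-deleted and 446, 414 and 455 CPM in controls, with overlap.

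Fbl (ENSMUSG00000046865, chr7:28169710-28179269 on the plus strand) had 276, 143 and 145 CPM in libraries labelled Rbfox2-deleted, against 136, 182 and 134 CPM in controls. Library 1 of the deleted label was high and the other libraries overlapped. Its log2 fold change of 0.25 (SE 0.404) had an adjusted p of 0.945 in edgeR, and it was -0.15 without library 1 of the deleted label. The processed copies Gm5812 and Gm6211 are near-identical to Fbl, which leaves its count uncertain.

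**Figure D2:**
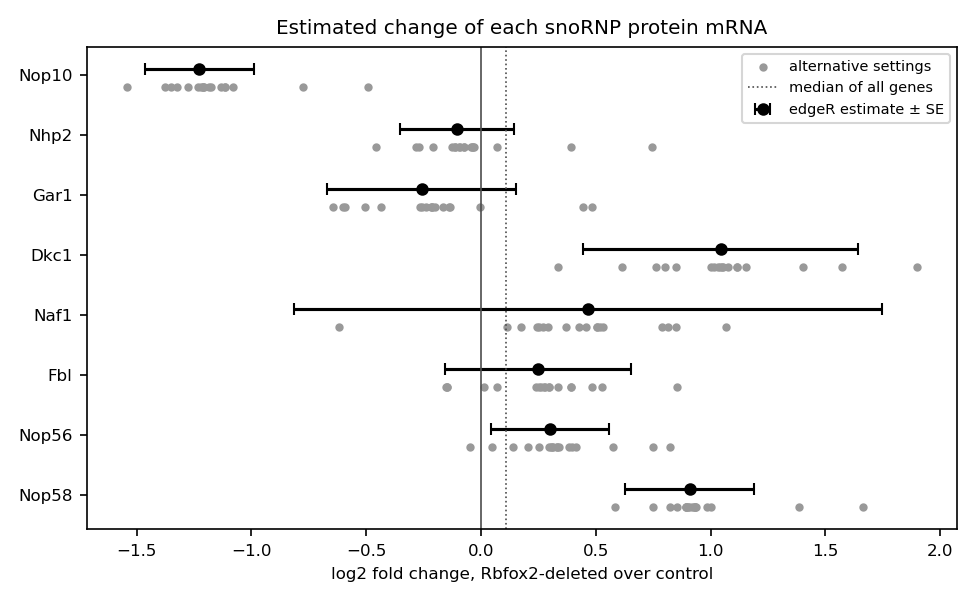
Log2 fold change of each of the 8 genes, libraries labelled Rbfox2-deleted over control, with error bars of 1 SE from edgeR and grey points for the other settings; the dotted line is the median of all genes. Nop10 (-1.23) lies left of 0, and Nop58 (0.91) and Dkc1 (1.04) right of it, under every setting drawn. The intervals of Nhp2, Gar1, Naf1 and Fbl span 0.

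Of the 8 genes, 5 had a mean log2 fold change above 0 and 3 below. With upper quartile scaling 3 of the 8 were above. The same number was above with sex as a term, which sets library 2 of the deleted label alone against the controls. The median of the 8 in the reported fit was 0.27, beside 0.11 over all 12350 genes tested. None of the 8 passed edgeR's threshold, and neither did any other gene, so the share called was 0.0% over all genes. At an unadjusted p under 0.05 in edgeR, 2 of the 8 were counted, Nop10 and Nop58, beside 1221 of 12350 genes (9.89%). DESeq2 called 0 of the 8 and 181 genes in all (1.47%). The groups did not overlap with the deleted label higher for 1 of the 8, Nop58, beside 14.9% of all genes, and with it lower for 1 of the 8, Nop10, beside 17.2% of all genes. Because the genes were picked from this contrast, nothing is read from these counts. The number of genes at an unadjusted p under 0.05 moved to 2924 without library 1 of the deleted label and to 465 without control 2.

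Levels of different genes were set side by side as CPM per kilobase of the longest annotated transcript. Nop10 was the highest of the 8, at 336 ± 47.4 CPM per kb (SD, n = 3) with the deleted label and 786 ± 75.5 CPM per kb (SD, n = 2) in controls. Nhp2 came next, at 322 ± 37.1 CPM per kb with the deleted label and 346 ± 53.5 CPM per kb in controls. With the deleted label these 2 levels were within their spread of each other, while in controls Nop10 lay above Nhp2 in every library. Nop56 followed at 162 ± 15.4 CPM per kb with the deleted label and 132 ± 31.2 CPM per kb in controls. Gar1, Fbl and Dkc1 then had 82.6, 77.8 and 134 CPM per kb with the deleted label and 98.9, 65.6 and 64.9 CPM per kb in controls. In controls Gar1 lay above Fbl and Dkc1 in every library, while Fbl and Dkc1 overlapped there. With the deleted label the ranges of all 3 genes overlapped, although Gar1 was above Fbl within each library. Nop58 had 21.5 CPM per kb with the deleted label and 11.5 CPM per kb in controls, and Naf1 was lowest at 1.75 CPM per kb with the deleted label and 1.27 CPM per kb in controls. Over its shorter coding transcript of 1713 bases, Nop58 would stand at 120 CPM per kb with the deleted label and 63.7 CPM per kb in controls. With the RefSeq-linked transcript as the length, 6 of the 8 genes kept their rank by control level, and Fbl and Gar1 changed places. With the deleted label, Fbl then moved from rank 6 to 4, Dkc1 from 4 to 5 and Gar1 from 5 to 6. On that length Fbl had 230, 119 and 121 CPM per kb with the deleted label. Gar1 had 116, 65.6 and 66.5 CPM per kb there, so Fbl was above Gar1 within each library.

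Ratios of counts within a library do not depend on scaling. Nop10 over Nhp2, which meet in the core particle, was 0.831, 1.24 and 1.31 in libraries labelled Rbfox2-deleted, against 2.50, 2.32 and 2.55 in controls. The Nop10 over Nop58 ratio was 1.62, 2.02 and 1.81 with the deleted label and 6.94, 9.18 and 6.97 in controls. Both ratios kept the groups apart with no overlap. For Nop10 over Nop58 this was fixed beforehand, since the 2 genes each lay apart in opposite directions. Nop10 over Gar1 was 2.13, 4.94 and 4.65 with the deleted label and 7.75, 6.39 and 7.62 in controls, again apart. Nop10 over Dkc1 was 0.472, 1.34 and 2.55 with the deleted label and 4.40, 5.28 and 4.28 in controls. A ratio shows unequal change between 2 genes, not which of them differed. Nop10 was chosen in part for its low count in this contrast, so nothing more is read from the separation of its ratios.

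Among the other pairs, Nop58 over Nop56 was 0.296, 0.359 and 0.398 in libraries labelled Rbfox2-deleted and 0.293, 0.182 and 0.294 in controls. The groups just failed to touch, since library 1 of the deleted label was 0.296 and control 3 was 0.294. Nop56 over Nhp2 was 1.73, 1.72 and 1.82 with the deleted label and 1.23, 1.39 and 1.24 in controls. Ratios of Gar1 to Nhp2 (0.391, 0.252 and 0.282 with the deleted label, 0.323, 0.364 and 0.334 in controls) and of Fbl to Nop56 (0.423, 0.250 and 0.266 with the deleted label, 0.342, 0.326 and 0.335 in controls) overlapped.

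**Figure D3:**
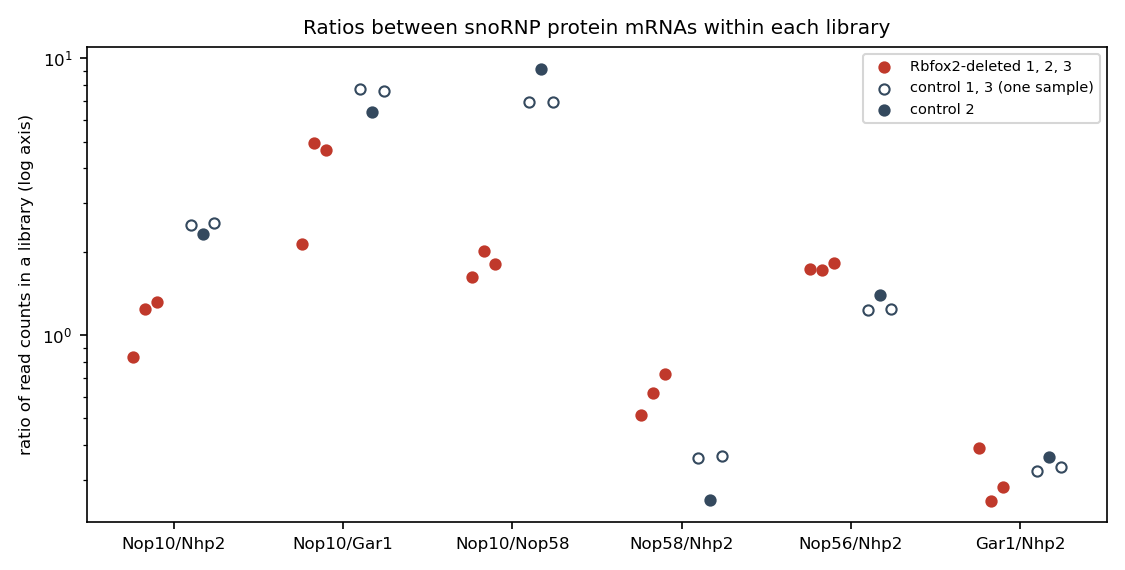
Ratio of the counts of 2 snoRNP genes within each library, on a log axis, with libraries labelled Rbfox2-deleted (red) left of controls (blue, open for controls 1 and 3). Nop10 over Nhp2 lies between 0.831 and 1.31 with the deleted label and between 2.32 and 2.55 in controls.

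Summed over the H/ACA core (Nop10, Nhp2, Gar1 and Dkc1), the level was 1188 ± 287 CPM (SD, n = 3) with the deleted label and 1540 ± 160 CPM (SD, n = 2) in controls, with overlap between the libraries. Without Nop10 it was 815 ± 333 CPM with the deleted label and 668 ± 76.0 CPM in controls. The 3 C/D core genes summed to 1120, 917 and 907 CPM with the deleted label, against 648, 841 and 649 CPM in controls. All 3 libraries with the deleted label were thus above the controls on the C/D sum, with means of 981 ± 120 CPM and, in controls, 745 ± 136 CPM. Of the summed genes only Nop58 lay apart on its own, as did 14.9% of all genes in that direction. Snu13 is not in this sum. With TMM scaling it was lower with the deleted label, mostly in library 1.

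Snu13, the fourth core protein of box C/D particles, had 114, 245 and 227 CPM in libraries labelled Rbfox2-deleted, against 246, 251 and 256 CPM in controls. The groups did not overlap on this scale but did without TMM scaling, with a log2 fold change of -0.36, an SE of 0.382 and 0.890 as edgeR's adjusted p. Library 1 of the deleted label was far below the rest, and the ratio of Snu13 to Fbl was 0.415 there, against 1.72 and 1.57 in the other libraries of that label and 1.82, 1.38 and 1.92 in controls. Without library 1 of the deleted label the log2 fold change of Snu13 was -0.11.

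Assembly factors build the particles and load the guide RNA, and 15 of the 16 listed were tested. No factor passed edgeR's threshold, 9 of the 15 had a log2 fold change above 0 and 6 below, and the median was 0.28, beside 0.11 over all genes. At an unadjusted p under 0.05 edgeR counted 2 of the 15, Shq1 higher and Pih1d1 lower, beside 9.89% of all genes. DESeq2 called 1 of the 15, Shq1, beside 1.47% of all genes. Shq1, the chaperone that binds dyskerin before the particle forms, had 78.4, 53.7 and 50.9 CPM in libraries labelled Rbfox2-deleted, against 15.5, 11.2 and 14.4 CPM in controls. Its groups were far apart, and its counts were 1553, 2069 and 1981 with the deleted label and 751, 540 and 804 in controls. The log2 fold change was 2.22 (SE 0.598), with an adjusted p of 0.387 in edgeR and 0.020 in DESeq2. Pih1d1, of the R2TP chaperone complex that acts on box C/D proteins, had 166, 185 and 145 CPM with the deleted label, against 266, 310 and 258 CPM in controls. Its log2 fold change of -0.79 (SE 0.268) had 0.425 as edgeR's adjusted p, and its exons overlap those of Aldh16a1 on the opposite strand.

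The ATPases of the same chaperone complex, Ruvbl1 and Ruvbl2, averaged 312 ± 54.9 and 464 ± 331 CPM (SD, n = 3) with the deleted label, against 258 ± 13.5 and 252 ± 17.5 CPM (SD, n = 2) in controls. Their log2 fold changes were 0.28 and 0.88, and both overlapped between the groups. The groups of 5 of the 15 factors did not overlap with the deleted label lower, beside 17.2% of all genes, namely Pih1d1, Znhit3, Tcof1, Tgs1 and Phax. With the deleted label higher this held for 1 of the 15, Shq1, beside 14.9% of all genes. Tgs1 hypermethylates the cap of those snoRNAs that carry one. It averaged 34.1 ± 7.83 CPM with the deleted label and 66.0 ± 1.71 CPM in controls, a log2 fold change of -0.95. Phax, an adaptor that carries the RNA through its maturation, averaged 113 ± 21.4 CPM with the deleted label and 173 ± 4.15 CPM in controls, a log2 fold change of -0.62. Znhit3, a box C/D assembly factor, averaged 55.8 ± 47.5 CPM with the deleted label and 157 ± 0.11 CPM in controls. Its libraries of the deleted label had 1.06, 81.1 and 85.3 CPM, with only 21 counts in library 1. Tcof1 had 0.10, 31.1 and 19.2 CPM with the deleted label, against 39.8, 53.1 and 45.2 CPM in controls. Only 2 counts of Tcof1 were in library 1 of the deleted label.

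**Figure D4:**
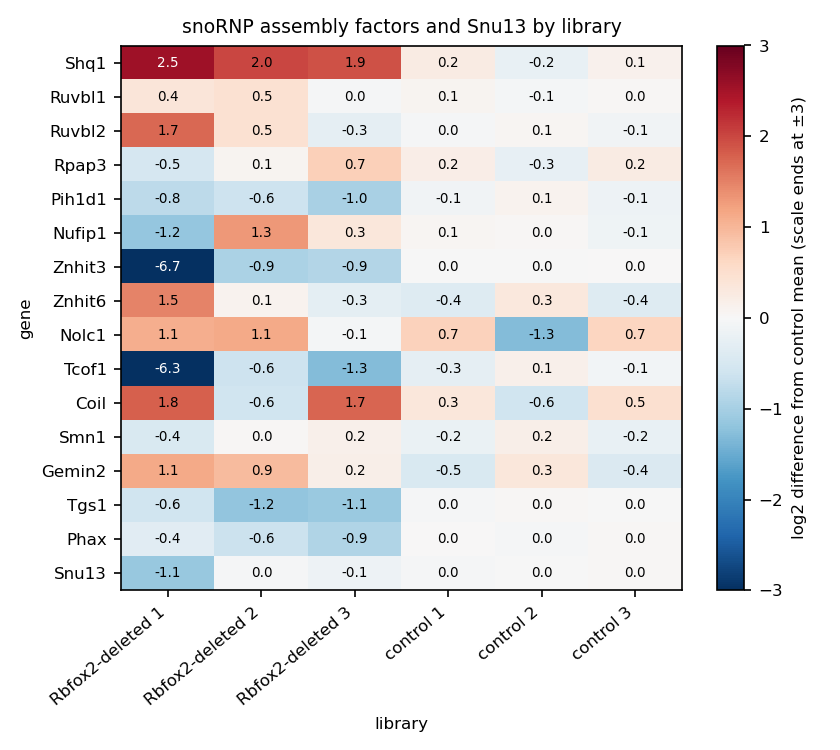
Log2 level of the assembly factors and Snu13 in each library, relative to the control mean, as a colour map that ends at ±3 with a row for each gene and the libraries labelled Rbfox2-deleted left of the controls. Shq1 is above control in every library of the deleted label (by 1.92 to 2.54 on the log2 scale), while Tgs1, Pih1d1 and Phax are below it in all 3.

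Genes of telomerase and telomere maintenance were examined because the H/ACA proteins bind telomerase RNA. Tert, the reverse transcriptase, had 0, 94 and 58 counts in libraries labelled Rbfox2-deleted, against 159, 49 and 171 counts in controls. A count of 0 in library 1 allows up to 3 counts, or 0.152 CPM, and the log2 fold change was -0.67 (SE 2.07). Wrap53, which sends telomerase to Cajal bodies, had 0, 1448 and 179 counts with the deleted label, against 553, 962 and 613 counts in controls, and its log2 fold change was -0.15 (SE 2.13). Both SEs were larger than the values, and both genes had no count in library 1 of the deleted label. Terc was not analysed here. Of 18 genes tested, 9 had a log2 fold change above 0 and 9 below, and the median was -0.02. In library 1 of the deleted label, 9 of them had no more than 3 counts. The share of all genes that low there was not counted, and that library had the fewest genes detected (14154). Tinf2, of the shelterin complex, had 98.7, 22.2 and 34.5 CPM with the deleted label, against 15.9, 15.2 and 14.9 CPM in controls, a log2 fold change of 1.76 (SE 0.846). It was 0.88 without library 1 of the deleted label. With sex as a term, which sets library 2 of that label alone against the controls, it was 0.54. Its shelterin partner Acd had 127, 186 and 161 CPM with the deleted label, against 211, 236 and 203 CPM in controls, a log2 fold change of -0.49 (SE 0.294).

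The U3 snoRNP and the early small subunit processome use a box C/D particle to fold and cleave ribosomal RNA. Of 25 such genes tested, 15 had a log2 fold change above 0 and 10 below, with a median of 0.36. In library 1 of the deleted label 6 of them had no more than 3 counts, again without a share over all genes. Imp3, a U3 protein, had 9.14, 123 and 89.7 CPM in libraries labelled Rbfox2-deleted, against 306, 264 and 282 CPM in controls, a log2 fold change of -1.91 (SE 0.904), with a range of -2.52 to -1.40 on leaving out 1 library. Utp6 had 9.80, 14.6 and 14.1 CPM with the deleted label, against 4.88, 3.33 and 4.69 CPM in controls, a log2 fold change of 1.66 (SE 1.06). Neither gene's difference passed the threshold in edgeR.

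Enzymes that modify RNA without guide RNAs did not pass edgeR's threshold either. Among 12 stand-alone pseudouridine synthases, 9 were above 0 and 3 below (median 0.52). In library 1 of the deleted label 7 had no more than 3 counts, again without a share over all genes. Pus10 had 0.152, 4.49 and 2.93 CPM in libraries labelled Rbfox2-deleted, against 0.662, 0.145 and 0.395 CPM in controls, a log2 fold change of 2.91 (SE 2.02), while Pus7 was at -0.94 (SE 1.74). Of 6 stand-alone 2′-O-methyltransferases, 4 were above 0 and 2 below (median 0.35). Mrm2, which acts on mitochondrial ribosomal RNA, had 154, 70.6 and 31.4 CPM with the deleted label, against 46.9, 44.7 and 46.4 CPM in controls, a log2 fold change of 0.90 (SE 0.713), which was 0.15 without library 1 of the deleted label. Trmt13 was at -1.15 (SE 1.31), with -0.21 without controls 1 and 3.

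Of 8 abundant nucleolar proteins, 4 were above 0 and 4 below, with a median of 0.22. Nop2, a ribosomal RNA methyltransferase, had 15.8, 41.1 and 52.2 CPM in libraries labelled Rbfox2-deleted, against 10.9, 9.35 and 11.0 CPM in controls, a log2 fold change of 1.84 (SE 0.855). Rrp1b had 122, 70.3 and 86.0 CPM with the deleted label, against 151, 143 and 149 CPM in controls, a log2 fold change of -0.66 (SE 0.370). The histone chaperone Npm1 averaged 448 ± 104 CPM with the deleted label and 306 ± 60.0 CPM in controls, and Ncl averaged 328 ± 111 CPM and, in controls, 355 ± 6.00 CPM. No gene of this list passed the threshold in edgeR.

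**Figure D5:**
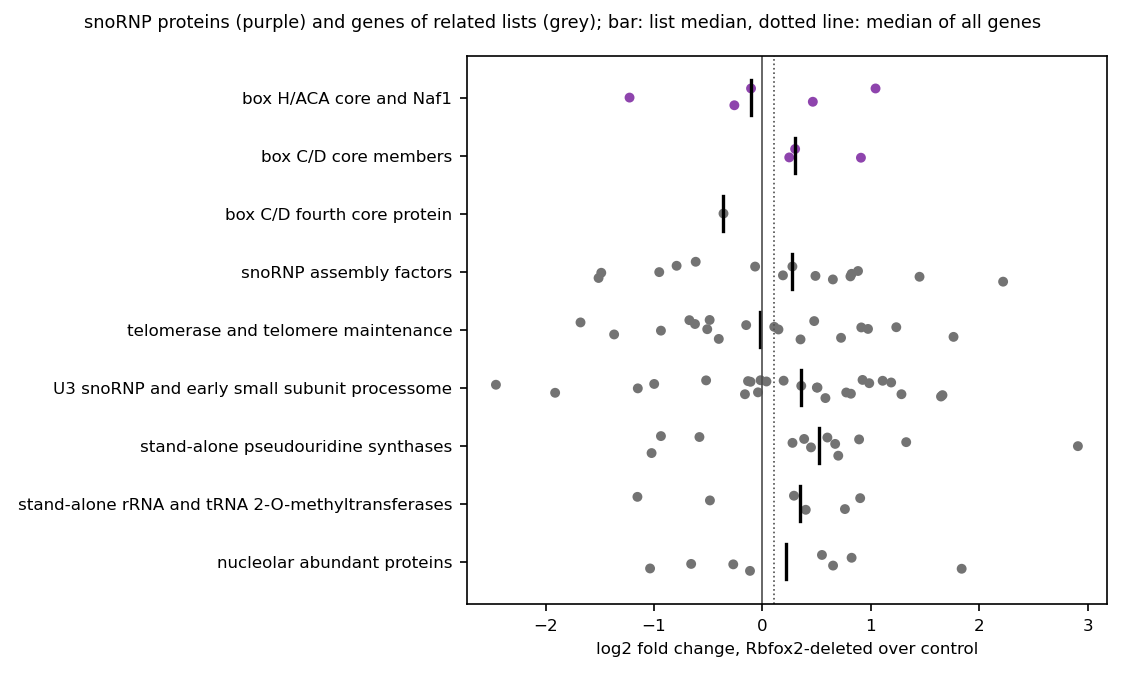
Log2 fold changes, libraries labelled Rbfox2-deleted over control, of the snoRNP proteins (purple) and of the genes of 7 related lists (grey), with a bar at each list's median and a dotted line at the median of all genes (0.11). The lists spread on both sides of 0, with medians from -0.36 for Snu13 alone to 0.52 for the stand-alone pseudouridine synthases.

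The genes whose pattern over the 5 samples was closest to that of Nop10, by the root mean square difference of centred log2 CPM among 5347 genes with a mean of at least 20 CPM, were Sh3bgrl3 (0.075), Cox6c (0.086), Swi5 (0.099) and Atox1 (0.103). Sh3bgrl3 had 523, 697 and 651 CPM in libraries labelled Rbfox2-deleted, against 1214, 1437 and 1192 CPM in controls. Atox1, a copper chaperone, had 77.3, 94.2 and 98.3 CPM with the deleted label, against 233, 228 and 232 CPM in controls. All 4 were lower in every library with the deleted label than in every control, as was Nop10. This follows from their choice by likeness to Nop10 over the same samples, so nothing is read from it. For Fbl the closest genes were Rtp4 (0.050), Slc25a5 (0.056), Hoxa9 (0.093) and Timm17a (0.094). Hoxa9, a homeobox factor of stem and progenitor cells, had 98.3, 44.3 and 49.5 CPM with the deleted label, against 44.9, 68.8 and 45.2 CPM in controls. All 4 of these, like Fbl, overlapped between the groups, which again follows from the choice.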

How the data were processed

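Bulk RNA sequencing was done on sorted stem cells by Smart-seq2, per the labels' protocols; this full-length method amplifies polyadenylated RNA by PCR and keeps no strand. The deposited values are raw read counts per Ensembl gene identifier, made by the authors without normalization. The submitters' processing notes list featureCounts, Trimmomatic 0.39, DESeq2 1.36.0 and build mm10, and the aligner and strand setting were not stated there. Rows sharing an identifier (60 identifiers on 134 rows, 0.449% of counts) were summed, and 22839 of 22969 identifiers had a symbol. Controls 1 and 3 were summed and counted as 1 sample.

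The test was edgeR's two-sided quasi-likelihood test (version 4.0.16, R 4.3.3) with group alone in the model, TMM factors and filterByExpr at a minimum count of 10 and minimum total of 15, with Benjamini-Hochberg adjustment over 12350 genes and a threshold of 0.05. SE was taken from the log2 fold change and the square root of its F statistic. DESeq2 1.42.0, other scalings and filters, length and GC offsets, sex as a term, 6 separate libraries, a replicate block and leaving out each library were alternatives. Coordinates and lengths come from GENCODE vM21 (GRCm38). Copies were searched among annotated pseudogene transcripts only, with blastn 2.17.0 at 90% identity over at least 50% of the transcript. Named genes were the 8 members, Snu13, Tert, Terc, Wrap53, Shq1, Rbfox2, the gene with the smallest p on each side of control in each other list, and the 4 genes closest to Nop10 and to Fbl; further list genes named were chosen after their values were seen. The members and lists were chosen with earlier results of these data known. The code was tested on simulated counts with a dispersion of 0.05, well below the 1.088 estimated here, so that test checks the code and not the power of this comparison. Of the alternative lengths planned for levels per kilobase, the RefSeq-linked transcript was used because the shortest coding entries were fragments; this, and the shorter Nop58 transcript, were chosen after the data were seen. One gene of the planned stem cell marker list is not reported here and was left out of its sum.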

Additional observations from a re-analysis of the deposited data

How the results depend on the processing

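No gene passed the adjusted threshold in edgeR under the settings run, while DESeq2 called 181 genes, among them 1 of the related lists, Shq1. The number of genes at an unadjusted p under 0.05 in edgeR ran from 371 with sex as a term to 2924 without Rbfox2-deleted library 1. Of the 8 genes, 3 were above control with upper quartile scaling and 3 with sex as a term, against 5 in the reported fit. Values with sex as a term set library 2 of the deleted label alone against the controls, since libraries 1 and 3 share the other sex. Nop10 stayed below 0 and Nop58 above 0 in all 19 settings. So did Dkc1 above 0, from 0.34 to 1.90, although its groups overlapped. Values that changed sign were the following. With upper quartile scaling, log2 fold changes were -0.15 for Fbl, -0.050 for Nop56, -0.21 for Rtp4, -0.089 for Slc25a5, -0.23 for Hoxa9 and -0.28 for Timm17a. With sex as a term they were -0.62 for Naf1, -0.15 for Fbl, 0.22 for Tert, 1.27 for Wrap53, -0.16 for Rtp4, -0.13 for Slc25a5, -0.36 for Hoxa9 and -0.37 for Timm17a. The GC offset gave 0.39 for Nhp2 and 0.45 for Gar1, and the length offset 0.74 for Nhp2, 0.48 for Gar1 and 0.27 for Rrp1b. Without the filter on low counts Hoxa9 was at -0.0098 and Timm17a at -0.058. Wrap53 was at 0.011 with 6 separate libraries and 0.034 with library totals alone, a setting chosen after seeing the data. The cause of these changes was not tested.

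Leaving out 1 library at a time, or controls 1 and 3 together as the 1 sample they form, log2 fold changes ran from -0.15 to 0.48 for Fbl, -0.28 to 0.07 for Nhp2, -1.50 to 0.35 for Tert, -2.78 to 0.43 for Wrap53, -3.76 to 1.90 for Rbfox2, -2.11 to 0.87 for Pus7, -0.19 to 0.37 for Rtp4, -0.13 to 0.47 for Slc25a5, -0.30 to 0.51 for Hoxa9 and -0.33 to 0.30 for Timm17a. Of these omissions, only that of both controls 1 and 3 changed the sign of Tert, Rbfox2 and Pus7. In that setting Rtp4 was at -0.018, Hoxa9 at -0.14 and Timm17a at -0.064. For Nop10 the range was -1.35 to -1.11 and for Nop58 0.82 to 0.99. The replicate block on 6 libraries called 0 genes and counted 1348 at an unadjusted p under 0.05, with Nop10 at -1.18 and Nop58 at 0.89. Correlations of same-numbered deviations were -0.046, 0.002 and 0.070. Because controls 1 and 3 are near-identical, these values cannot show whether the numbers pair the samples. With 3 samples against 2, 1 of them 2 summed libraries, the SE of scarce genes such as Naf1 and Tert was larger than their log2 fold change. For Naf1 the libraries of a group differed by more than their counting error.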

Other observations

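Host genes of snoRNAs are spliced for their introns, and 3 of the 8 genes are such hosts in the annotation: Nop56 with 5 snoRNA entries, among them Snord110 and Snord57, Nop58 with 4, among them Snord70 and Snord11, and Dkc1 with 1. These snoRNAs were not analysed here. The 44 other annotated snoRNA and scaRNA identifiers that were counted took 0.00854%, 0.00453% and 0.00731% of the counts in libraries labelled Rbfox2-deleted, against 0.00994%, 0.00924% and 0.0104% in controls. All 3 libraries of the deleted label lay below the controls on this scale. With TMM scaling the groups overlapped, at 101, 41.9 and 62.7 CPM with the deleted label and 98.5, 99.2 and 103 CPM in controls. Smart-seq2 primes on polyadenylated RNA, so these shares do not measure mature snoRNAs.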
